A study of Mus musculus with 8 samples.

Results

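Free resiquimod (R848), a small imidazoquinoline that activates the endosomal RNA sensor TLR7, was compared with saline 24 hours after dosing in single cells of MC38 tumors, a mouse colon carcinoma line grown under the skin of 8-week-old female C57BL/6 mice. The comparison held 6 of the 8 tumors of the series, 3 given free R848 and 3 given saline, and 7303 of its 9886 kept cells. The other 2 tumors received medium R848-BPDs, a bottlebrush polymer prodrug that carries R848, and entered the fits to estimate the spread between tumors. Every tumor was a separate sample, dissociated at the same time after 1 dose, and the labels name no engineered allele in a host. Its cells were loaded onto Seq-Well arrays with CD45+ cells in excess of CD45- cells, so shares of cells are shares of what was loaded and not of the tumor. MC38 is 1 line, and its transplanted tumors can differ between hosts. The labels give neither a dissection day nor a sequencing run.

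Cells were assigned by gates on summed UMIs, where a UMI (unique molecular identifier) marks 1 captured transcript. Macrophages had at least 5 UMIs of the complement genes *C1qa*, *C1qb* and *C1qc*. NK cells had at least 2 of *Ncr1*, *Klre1* and *Klrb1c*, and T cells at least 2 of *Cd3d*, *Cd3e* and *Cd3g*. Mature dendritic cells had at least 3 of *Ccr7* and at least 1 of *Fscn1*, and MC38 tumor cells at least 5 of *Mtap* and *Rhox5*. Across the 6 tumors, 3224, 753, 445, 162 and 1021 cells passed these gates in that order, 333 cells passed several of them, and 2042 passed none. Gate genes of a class are left out of its tests and lists.

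TLR7 lies in endosomes of macrophages and dendritic cells and signals through the adaptor MyD88. It leads to NF-kB, which drives cytokine and acute-phase genes, and to the interferon regulatory factors IRF5 and IRF7, which drive type I interferons. Type I interferons act on most cells through a factor that holds STAT2 and IRF9 and binds the interferon-stimulated response element (ISRE) in front of antiviral genes. Mature dendritic cells carry antigen on MHC class I and costimulatory molecules to T cells, and NK cells kill with granzymes and perforin.

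The tumors held 5867590 to 12422614 UMIs, and the median kept cell had 3247 UMIs in saline replicate 3 and 6928 UMIs in free R848 replicate 1. Scrublet marked 0.146% to 1.23% of the cells of a tumor as doublets. Of all cell barcodes, 23 occurred in more than 1 library, on 43 of the kept cells of the 6 tumors. The median mitochondrial share of UMIs per kept cell was 4.03%, 4.48% and 5.44% after free R848 and 3.62%, 3.78% and 4.25% after saline. The classes were checked with markers outside their own gates, which separated some classes less than others. The 8 such macrophage markers summed to 11715 to 16419 CPM (UMIs of a gene after every sum is scaled to the same total, the usual unit for expression per library) in the macrophages of single tumors after free R848 and to 224 to 958 CPM in the NK cells, but reached 4335 CPM in the NK cells of 1 saline tumor. The 8 such T cell markers summed to 2215 to 4085 CPM in T cells and 26.9 to 53.4 CPM in macrophages after free R848. The 7 NK cell markers outside the gate summed to 7235 to 8206 CPM in NK cells after free R848 and 4753 to 6393 CPM after saline, and reached 3203 CPM in T cells. Separation was weakest for the 6 MC38 markers outside the gate, at 1422 to 1505 CPM in MC38 cells against 531 to 579 CPM in macrophages after free R848, and they reached 1236 CPM in mature dendritic cells after saline, near the 1567 CPM of the lowest saline tumor in MC38 cells. The keratin genes *Krt18* and *Krt8*, which would mark an epithelial carcinoma, were at 0 in the gated MC38 cells of all 6 tumors.

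Saline replicate 2 stood apart from the other libraries. Macrophages were 67.8% of its cells, against 31.4% to 48.4% in the other 5 tumors, and only 7.83% of its cells passed no gate, against 21.1% to 45.3%. It held 7 mature dendritic cells, fewer than the 10 required, so the fit of that class used 3 tumors after free R848 and 2 after saline.

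Among the 5 classes, mature dendritic cells were the one whose shares did not overlap between treatments. They made up 2.75%, 2.89% and 3.92% of cells after free R848 and 2.40%, 0.485% and 1.66% after saline. The means were 3.19% ± 0.641 and 1.52% ± 0.967 (SD, n = 3 each), a difference of 1.67 percentage points (p = 0.1 in an exact two-sided permutation over all 20 splits, which can go no lower, and 0.5 after Benjamini-Hochberg adjustment over the 5 classes). The difference was 1.16 points without saline replicate 2. When every cell was thinned to 1000 UMIs the groups overlapped, at 1.46% to 2.15% and 0.139% to 1.54% (exact permutation p = 0.2). Wilson 95% intervals around single shares of this class reached at most 1.29 points to either side, and they cover counting error only.

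T cells and MC38 cells had higher mean shares after free R848 and NK cells a lower one, each within the spread of the tumors. T cells were 8.93%, 5.48% and 7.40% of cells after free R848 and 5.24%, 4.64% and 6.10% after saline, a difference of 1.94 points (exact permutation p = 0.2). NK cells stood at 10.8%, 9.90% and 7.29% against 12.5%, 8.52% and 12.2%, a difference of -1.73 points (exact permutation p = 0.3). For MC38 cells the shares were 21.7%, 15.1% and 11.1% against 11.7%, 18.6% and 5.86% (difference 3.90 points, exact permutation p = 0.5). Macrophages, at 41.2%, 48.4% and 37.4% against 33.4%, 67.8% and 31.4%, differed by -1.90 points (exact permutation p = 1). That sign rested on saline replicate 2, without which macrophages were 9.91 points higher after free R848, and it also turned without free R848 replicate 3 (0.55 points higher).

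**Figure D1:**
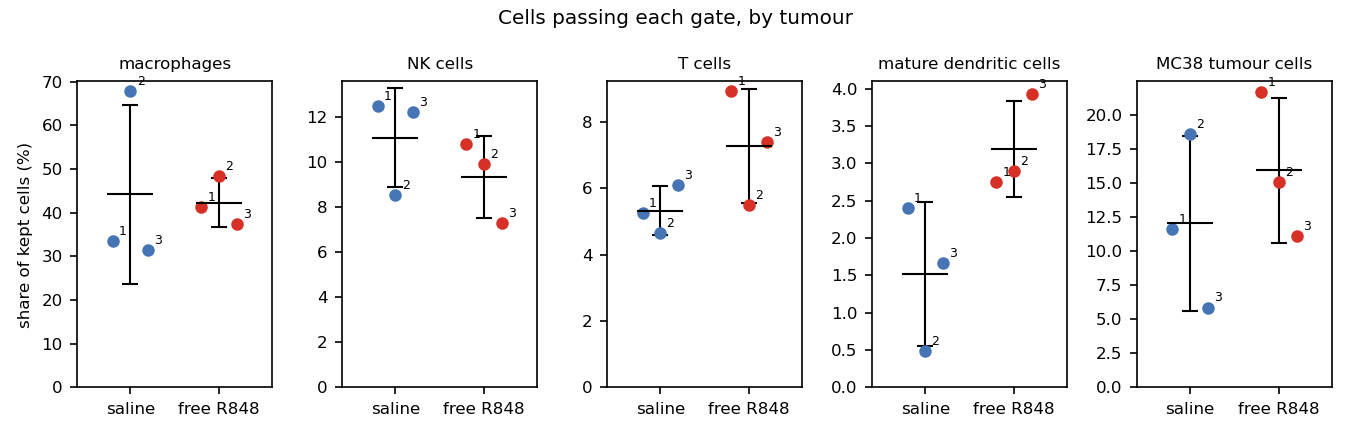
Share of kept cells (percent) that passed each gate, with 1 point per tumor labeled by its replicate number, and bars for the mean and SD of 3 tumors. Mature dendritic cells after free R848, at 2.75% to 3.92%, lie above all saline tumors, and saline replicate 2 stands at 67.8% for macrophages.

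Over all cells together, *Lcn2* and *Ccl5* rose after free R848. They were 2 of 13013 genes tested (0.0154%) by edgeR's quasi-likelihood test on UMIs summed per tumor, with Benjamini-Hochberg adjustment, while 468 genes had an unadjusted p under 0.05 and DESeq2 called 8. In a sum over all cells, a change in the number of cells of a type and a change in RNA per cell cannot be told apart. As a measure that needs no model, 7.05% of all genes were higher in each tumor after free R848 than in each saline tumor and 5.96% were lower in each, which is called no overlap from here on.

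*Lcn2* encodes lipocalin 2, an acute-phase protein that binds bacterial siderophores, and lies on chromosome 2 from 32384633 to 32388252 (GRCm38, minus strand). Its level over all cells was 8.09, 7.59 and 12.4 CPM after free R848 and 0.657, 0.402 and 0.936 CPM after saline, in CPM normalized by the trimmed mean of M-values (TMM), as are the levels that follow. The means were 9.34 ± 2.62 CPM (SD, n = 3) against 0.665 ± 0.267 CPM (SD, n = 3), and every tumor after free R848 stood above every saline tumor (log2 fold change 3.89, SE 0.31, edgeR adjusted p = 0.0157). The tumors given medium R848-BPDs, which share the saline controls, stood at 351 and 341 CPM. These levels rest on few transcripts, 85, 74 and 67 UMIs after free R848 and 6, 5 and 5 UMIs after saline. The call was lost without free R848 replicate 1 (adjusted p = 0.0749), saline replicate 1 (0.243), saline replicate 2 (0.147) or saline replicate 3 (0.0695) in edgeR's test, with log2 fold changes of 3.56 to 4.11, and also when the 6 tumors were fitted without those given medium R848-BPDs (3.88, edgeR adjusted p = 0.0829).

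In macrophages *Lcn2* was the 1 gene called of 10774 tested (0.00928%), where edgeR gave 1312 genes an unadjusted p under 0.05 and DESeq2 called 111. Levels were 8.8, 8.31 and 5.6 CPM after free R848 and 0, 0.122 and 0 CPM after saline (log2 fold change 6.20, SE 0.52, edgeR adjusted p = 0.00812). Over the saline tumors 1 UMI of *Lcn2* was found in macrophages, against 79 after free R848, a ratio of 103 per UMI sequenced with an exact 95% interval from 18.0 to 4128 that covers counting error only. The call was lost without free R848 replicate 1 or 2 or saline replicate 1 (edgeR adjusted p = 0.0561, 0.0672 and 0.0560), with log2 fold changes of 6.09, 6.14 and 5.93, and among macrophages that passed no other gate (7.68, edgeR adjusted p = 0.145). Without saline replicate 2 it remained, at a log2 fold change of 7.67.

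Macrophages held 40.0%, 45.9% and 16.4% of the *Lcn2* UMIs of the tumors given free R848, and cells that passed no gate held 52.9%, 43.2% and 80.6%. In the latter, *Lcn2* stood at 34.6, 20.7 and 43.5 CPM after free R848 and 2.68, 5.46 and 2.03 CPM after saline, without TMM scaling. At least 1 *Lcn2* UMI was found in 5.24%, 4.25% and 1.80% of macrophages after free R848, and in 1.82%, 0.769% and 1.54% of NK cells and 1.10%, 5.56% and 0% of T cells, which should lack the gene. Median depths in free R848 replicate 3, where these shares were closest, were 4869.5 UMIs in macrophages and 6065 in NK cells. After thinning to 1000 UMIs the shares in macrophages were 0.714%, 0.630% and 0%, and those in NK cells 0%, 0% and 1.54%, and those in T cells 0% in each tumor. Set against NK cells and T cells, the macrophage share was not above background in free R848 replicate 2 at depth as sequenced, nor in replicate 3 after thinning. T cells of free R848 replicate 2 also held more *Lcn2* per UMI than its macrophages, at 22 and 8.39 CPM without TMM scaling. The cells that passed no gate carried neutrophil markers, which summed to 2000 to 3787 CPM after free R848 and 379 to 3972 CPM after saline, with 8 of 9 markers higher after free R848. Their part in the *Lcn2* result was not tested.

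*Ccl5* encodes a chemokine that draws T cells and monocytes and lies on chromosome 11 from 83525778 to 83530518 (GRCm38, minus strand). Over all cells it stood at 432, 425 and 468 CPM after free R848 and 146, 149 and 151 CPM after saline, or 442 ± 23 CPM (SD, n = 3) against 149 ± 2.29 CPM (SD, n = 3) (log2 fold change 1.57, SE 0.14, edgeR adjusted p = 0.0193). The saline tumors, saline replicate 2 included, lay close together and far below the others. The tumors given medium R848-BPDs stood at 1137 and 846 CPM. Leaving out any 1 of the 6 tumors moved the log2 fold change only between 1.52 and 1.6, but raised the adjusted p of edgeR's test to between 0.171 and 0.357.

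By class, *Ccl5* was highest in mature dendritic cells, at 9205, 6466 and 5287 CPM after free R848 and 3592 and 2729.7 CPM after saline (log2 fold change 1.14, SE 0.26, edgeR adjusted p = 0.213). These cells held 29.4% to 31.8% of the *Ccl5* UMIs of the tumors given free R848, and macrophages 25.6% to 49.6%. In macrophages the levels were 426, 503 and 331 CPM after free R848 and 54.0, 133 and 122 CPM after saline, a difference that did not pass the test (log2 fold change 2.02, SE 0.31, edgeR adjusted p = 0.16), and without saline replicate 2 it did (2.27, edgeR adjusted p = 0.0264). In cells that passed no gate, *Ccl5* stood at 672, 404 and 665 CPM after free R848 and 111, 277 and 119 CPM after saline, again without TMM scaling. In T cells the groups overlapped, at 315, 445 and 287 CPM against 162, 311 and 172 CPM without TMM scaling.

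**Figure D2:**
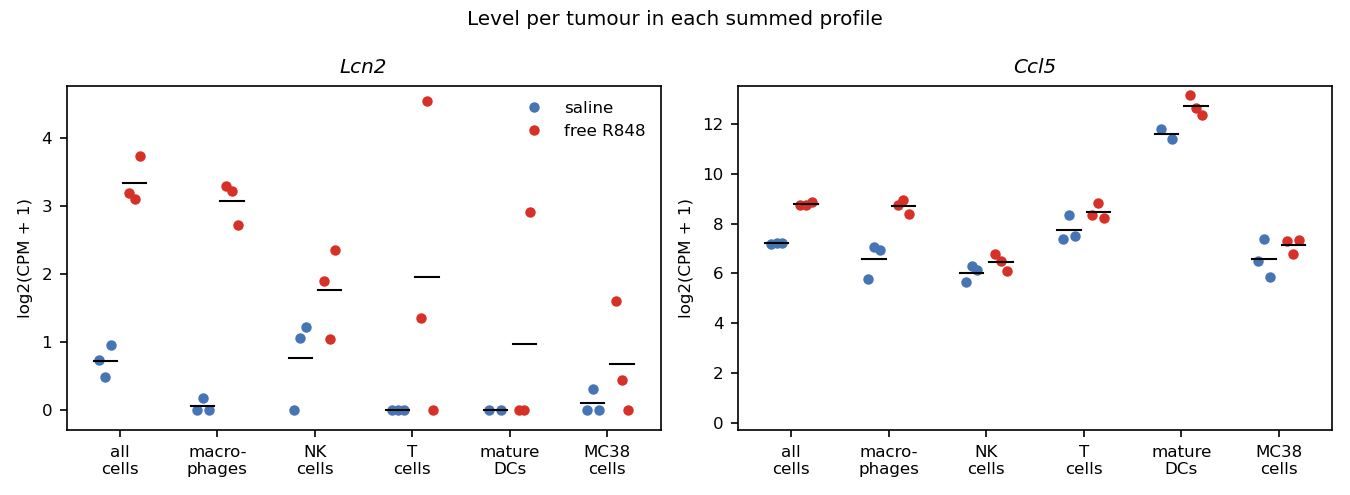
Levels of *Lcn2* and *Ccl5* as log2(CPM + 1) in the sum over all cells and in each gated class, 1 point per tumor with a line at the group's mean. The 3 tumors given free R848 lie above all saline tumors in all cells and in macrophages for both genes, and *Ccl5* is highest in mature dendritic cells.

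The other named genes over all cells did not pass the test. *Plau*, which encodes the urokinase plasminogen activator, stood at 43.0, 70.6 and 56.2 CPM after free R848 and 180.4, 142 and 231 CPM after saline (log2 fold change -1.70, SE 0.23, edgeR adjusted p = 0.279). All saline tumors lay above all others, and the tumors given medium R848-BPDs stood lower, at 12 and 10.5 CPM. In macrophages *Plau* was 82.6, 139 and 123 CPM against 389, 203 and 418 (log2 fold change -1.55, SE 0.30), a pair of groups that were far apart without saline replicate 2 as well (-1.81, edgeR adjusted p = 0.0158). *Fscn1*, an actin-bundling gene of mature dendritic cells and part of their gate, was 220.4, 211 and 252 CPM against 158, 141 and 116 (log2 fold change 0.72, SE 0.14). *H2-T22*, a nonclassical MHC class I gene, was 239, 214 and 257 CPM against 133, 169 and 160.00 (log2 fold change 0.62, SE 0.13). *Ecm1*, a secreted matrix protein, was 205, 243 and 259.5 CPM against 137, 134 and 177 (log2 fold change 0.66, SE 0.16). *Dynll1*, *Sh3bp5*, *Igsf8*, *Acsl4* and *Sh3pxd2b* had log2 fold changes of 0.46, 0.56, -0.44, -0.43 and -0.49, without overlap.

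In macrophages, type I interferon-stimulated genes were higher after free R848 with no exception in the list. All 55 measured genes of 55 listed had a positive log2 fold change, from 0.10 to 1.02 with a median of 0.48, against -0.02 over all genes tested in macrophages. Of these, 34 were higher in every tumor after free R848 than in every saline tumor and 0 were lower in every tumor, where 9.3% and 9.26% of all genes in macrophages did so. By edgeR 0 of the 55 passed adjustment and 34 had an unadjusted p under 0.05, while DESeq2, which called 1.14% of all genes, called 11. Without saline replicate 2, 53 of 55 were higher with a median of 0.49, and 37 had no overlap where 18% of all genes did. Over all tumors left out in turn, the median stayed between 0.38 and 0.57 and at least 52 were higher. The median mitochondrial share of UMIs per macrophage was also higher in every tumor after free R848, at 3.94%, 4.54% and 5.04% against 3.21%, 3.78% and 3.32% after saline, and its part in the lists of this class was not tested.

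The list spans the factors that carry the interferon signal and the antiviral proteins they induce. *Irf7*, the factor that amplifies interferon production, was 1236, 1375 and 1829 CPM after free R848 and 961, 769.7 and 1068 CPM after saline (log2 fold change 0.67, SE 0.21, edgeR adjusted p = 0.266), with free R848 replicate 3 the highest and saline replicate 2 the lowest. *Stat2*, a subunit of the factor that binds ISREs, was 271, 324 and 351 CPM after free R848 and 159.6, 192 and 170.1 CPM after saline (log2 fold change 0.85, SE 0.19, edgeR adjusted p = 0.179). *Isg15*, a ubiquitin-like modifier, was 248, 329 and 409.5 CPM after free R848 and 193, 124 and 168 CPM after saline (log2 fold change 1.02, SE 0.27, edgeR adjusted p = 0.211), and the groups lay apart also without saline replicate 2 (0.86). *Ms4a4c*, a membrane protein gene of monocytes, was 559, 616 and 793 CPM after free R848 and 387, 304 and 311 CPM after saline (log2 fold change 0.97, SE 0.17). *Ly6e*, the list's most abundant member, was 1564, 1691 and 1907 CPM after free R848 and 1434, 1352 and 1535 CPM after saline, a small difference without overlap (log2 fold change 0.26, SE 0.14). *Oas2*, an RNA-sensing synthetase, was among the lowest of the list and overlapped, at 56.2, 67.9 and 78.9 CPM against 55.6, 59.5 and 74.2 (log2 fold change 0.10, SE 0.16). *Isg15*, *Stat2*, *Ms4a4c* and *Oas2* were chosen after their values were seen.

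The promoters of these genes were read from RefSeq windows of 250 bases before the gene start (GRCm38.p6), which were at hand for 42 of the 55. The core of the ISRE, 2 copies of GAAA with any 2 bases between them on either strand, was found in 17 of the 42 (40.5%) and in 936 of 27025 windows of all genes (3.46%). A match gives letters, not a site of binding, and its absence says nothing of the factor. The list holds genes named for their induction by interferon, so its share of matches does not bear on these tumors. The windows around the match in *Isg15* (chr4:156200862-156200921 on the minus strand), *Stat2* (chr10:128270251-128270310 on the plus strand), *Bst2* (chr8:71537568-71537627 on the minus strand), *Rsad2* (chr12:26456538-26456597 on the minus strand) and *Oas1a* (chr5:120907526-120907570 on the minus strand) are shown as examples from the 17. Each is written 5′ to 3′ on the strand of its gene with the match in capitals.
Isg15: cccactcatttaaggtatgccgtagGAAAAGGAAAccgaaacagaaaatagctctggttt
Stat2: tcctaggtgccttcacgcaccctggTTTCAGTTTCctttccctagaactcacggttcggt
Bst2: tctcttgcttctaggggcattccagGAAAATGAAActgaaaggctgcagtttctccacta
Rsad2: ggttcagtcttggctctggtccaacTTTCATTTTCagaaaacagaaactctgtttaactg
Oas1a: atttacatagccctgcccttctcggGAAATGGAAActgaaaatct

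The same 55 genes were not higher as a group in NK cells or T cells. In NK cells 13 of 54 measured members were higher, the median was -0.20, and 15 were lower in every tumor, where 6.71% of all genes were. That median lay between -0.27 and -0.089, with 8 to 16 higher, as tumors were left out in turn. In T cells 25 of 54 were higher and the median was -0.09, and in MC38 cells 35 of 55 were higher with a median of 0.06. Both medians turned sign with 1 tumor left out, to 0.026 in T cells (without free R848 replicate 1) and -0.0093 in MC38 cells (without free R848 replicate 3), within ranges of -0.11 to 0.026 and -0.0093 to 0.21. Mature dendritic cells had 39 of 51 higher with a median of 0.37, and 16 were higher without overlap, where 13.6% of all genes were. With tumors left out in turn that median lay between 0.20 (without free R848 replicate 2) and 0.83 (without saline replicate 1), and 31 to 46 were higher. The 11 macrophage markers were also all lower in NK cells after free R848. Their sums overlapped between tumors, at 266 to 1235 CPM against 344 to 6295 CPM, and their part in the NK value was not tested. Among cells that passed no other gate, these type I interferon-stimulated genes were higher in 18 of 51 with a median of -0.07 in NK cells, in 10 of 49 with -0.24 in T cells and in 36 of 51 with 0.18 in mature dendritic cells. In MC38 cells *Bst2*, which encodes the virus-tethering protein tetherin, was 1099, 1309 and 1038 CPM after free R848 and 784, 699.5 and 647 CPM after saline (log2 fold change 0.69, SE 0.14, edgeR adjusted p = 0.61), and *Isg15* was 186, 215 and 251 CPM against 163, 124 and 134 (log2 fold change 0.62, SE 0.21). In NK cells *Bst2* was 194, 275 and 243 CPM against 224, 228 and 143 and overlapped.

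The difference between classes was tested directly with a class-by-treatment term that kept each tumor as a block. This term reached the threshold for 0 of 11049 genes (0%) between macrophages and NK cells, 0 of 10809 between macrophages and T cells and 0 of 11768 between macrophages and MC38 cells, with 887, 965 and 824 genes at an unadjusted p under 0.05 by edgeR. No other tool was run on this term. On that scale 0 of 55 interferon-stimulated genes changed more upward in NK cells than in macrophages (median difference -0.87), 0 of 55 in T cells (-0.60) and 3 of 55 in MC38 cells (-0.38). *Stat2* differed by -1.05, -1.12 and -0.76 in those classes, with edgeR adjusted p of 0.490, 0.202 and 0.674.

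**Figure D3:**
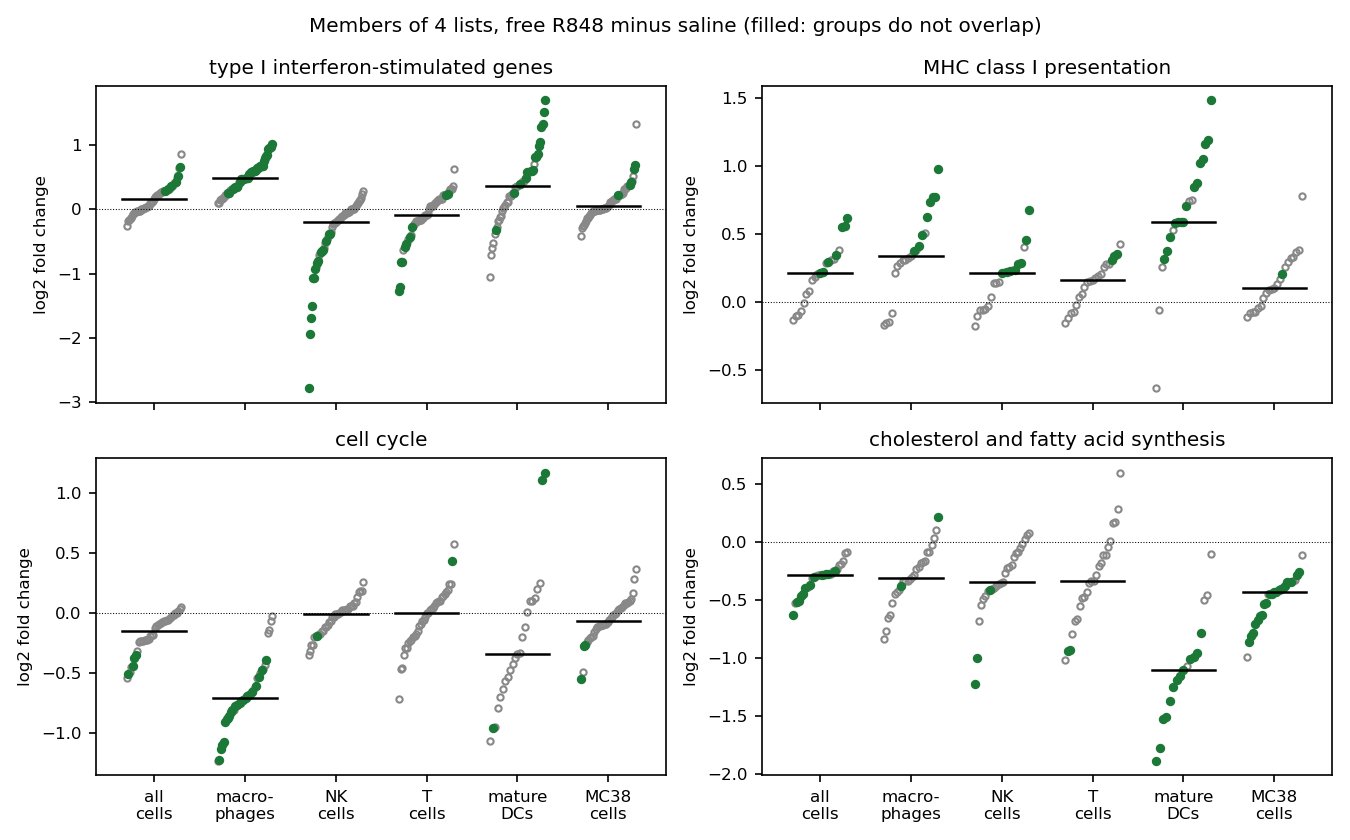
Log2 fold change of each measured member of 4 gene lists, free R848 minus saline, in all cells and the 5 classes. A point is a gene, filled where the tumors of the 2 treatments do not overlap, and a line marks the median, which for interferon-stimulated genes is 0.48 in macrophages and -0.20 in NK cells.

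Some components of TLR7 signaling were higher in macrophages without overlap, though none passed the test. *Tlr7* on chromosome X, from 167304929 to 167330558 (GRCm38, minus strand), stood at 86.7, 94.3 and 98.8 CPM after free R848 and 70.2, 76.8 and 68.3 CPM after saline (log2 fold change 0.37, SE 0.11, edgeR adjusted p = 0.226). The adaptor *Myd88* was 133, 111 and 147 CPM after free R848 and 87.2, 93.4 and 83.1 CPM after saline (log2 fold change 0.56, SE 0.12), and *Irf5*, which drives cytokine genes downstream, was 246, 208 and 216 CPM after free R848 and 168, 162 and 146 CPM after saline (log2 fold change 0.49, SE 0.11). *Tlr13*, a sensor of bacterial ribosomal RNA chosen after its value was seen, was 243, 236 and 249 CPM against 158, 176 and 167 (log2 fold change 0.54, SE 0.13). None of these groups overlapped. The chaperone *Unc93b1*, which carries these receptors to endosomes, was 668, 624 and 596 CPM against 430.1, 656 and 449, the kinase gene *Irak4* 51.8, 47.4 and 56.5 CPM against 43.3, 51.5 and 33.9, and the ligase gene *Traf6* 43.2, 42.0 and 55.5 CPM against 49.6, 38.7 and 58.0, and each overlapped. *Nfkb1*, the p105 subunit of NF-kB, was lower in each tumor, at 129.96, 135 and 147 CPM against 213, 202 and 174 (log2 fold change -0.52, SE 0.11). The most abundant members of the toll-like receptor list overlapped, with the lipopolysaccharide co-receptor *Cd14* at 649, 1083 and 1270.3 CPM against 1547, 562 and 1381 and *Slc15a3*, a transporter gene of endosomes and lysosomes, at 596, 663 and 784 CPM against 760.3, 493 and 779. Of the 31 genes of that list, 19 were higher. Without overlap 9 were higher and 2 lower, where 9.3% and 9.26% of all genes were. By edgeR 0 of them were called, with 11 at an unadjusted p under 0.05. DESeq2, which called 1.14% of all genes, called 3. Of 22 genes that restrain these receptors, 11 were higher and 5 were higher without overlap, and their median lay between -0.016 and 0.18 when tumors were left out in turn.

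Inflammatory cytokine and chemokine genes did not share the direction of the interferon-stimulated genes. In macrophages 9 of 24 measured cytokine genes were higher and the median was -0.49, with 3 higher and 1 lower without overlap, where 9.3% and 9.26% of all genes were. The median lay between -0.86 (without saline replicate 2) and -0.12 (without saline replicate 3) as tumors were left out in turn. The count lower without overlap was 13 without saline replicate 2, where 17.4% of all genes were. *Il1b*, the interleukin 1 beta gene, stood at 2005, 2027 and 2817 CPM after free R848 and 4166, 1679.9 and 3407 CPM after saline (log2 fold change -0.43, SE 0.30), with saline replicate 2 the lowest of all tumors and -0.73 without it. *Thbs1*, which encodes the matrix protein thrombospondin 1, was 977, 1330.2 and 2087 CPM against 1538, 396 and 1077, with log2 fold changes of 0.55 and, without saline replicate 2, 0.16. Of 22 chemokine genes 3 were higher, with a median of -0.29 (-0.52 to -0.092 with tumors left out in turn). *Cxcl2*, a neutrophil attractant, was 468, 748 and 1169 CPM against 1644, 265 and 1698, a log2 fold change of -0.60 or, without saline replicate 2, -1.07, and *Cxcl16* was 1065, 1083 and 1165 CPM against 1090.3, 1116 and 1145. The NF-kB inhibitor gene *Nfkbia* and the related *Nfkbiz* overlapped, at 937, 844 and 1230.1 CPM against 1167, 726 and 1192 and at 697, 662 and 772 CPM against 783, 725 and 1009.

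Genes of monocytes were higher in cells that passed the macrophage gate. The 8 monocyte markers summed to 3007 to 3397 CPM after free R848 and 1523 to 2285 CPM after saline, without overlap and with 7 of 8 higher, while the 8 macrophage markers outside the gate summed to 11715 to 16419 CPM and 15048 to 15799.6 CPM. *Ly6c2*, a surface marker of inflammatory monocytes that shares much sequence with *Ly6c1*, was 825, 813 and 968 CPM after free R848 and 498, 159.6 and 463 CPM after saline (log2 fold change 1.22, SE 0.35), with the lowest value in saline replicate 2 and 0.85 without it. *Plac8*, chosen after its value was seen, was 718, 669 and 900.01 CPM after free R848 and 443, 172 and 311 CPM after saline (log2 fold change 1.31, SE 0.31). Of the 20 genes of a wider monocyte list 13 were higher, with a median of 0.20 and 6 higher without overlap, where 9.3% of all genes were. That median lay between 0.13 and 0.47, the highest without saline replicate 2. *Fn1*, the fibronectin gene of that list, overlapped in saline replicate 2 alone, at 174, 216 and 180.3 CPM against 1159, 174 and 701 (log2 fold change -1.83, SE 0.55), and without that tumor it fell (-2.29, edgeR adjusted p = 0.0133). The part of monocytes in the interferon-stimulated genes was not tested.

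The remaining genes named by the smallest p in macrophages included several receptors of myeloid cells. *Pla2g7*, which encodes an enzyme that breaks down platelet-activating factor, was 816, 752 and 770.1 CPM after free R848 and 291, 426 and 411 CPM after saline (log2 fold change 1.05, SE 0.17, edgeR adjusted p = 0.16). The inhibitory receptor *Pirb* was 378, 314 and 384 CPM against 167, 201 and 222 (log2 fold change 0.87, SE 0.15), and *Cd300a* was 129, 108 and 111 CPM against 67.0, 73.9 and 73.8 (log2 fold change 0.70, SE 0.11). *Sirpb1c*, *Lrrc25*, *Adap2* and *Gm5150* had log2 fold changes of 0.88, 0.89, 0.82 and 1.19, without overlap. *Nomo1* was lower, at 40.1, 38.8 and 39.7 CPM against 67.3, 63.5 and 62.0 (log2 fold change -0.70, SE 0.10). *C3ar1*, the receptor for the complement fragment C3a, was 811, 873 and 926 CPM after free R848 and 546, 473 and 655 CPM after saline (log2 fold change 0.64, SE 0.14), one of 4 of 14 complement genes higher without overlap where 9.3% of all genes were, and the complement receptor gene *Itgam* was 794, 976 and 1087 CPM against 907, 772 and 745. Without saline replicate 2, 49 genes were called in macrophages (0.465% of 10548), 28 of them higher, among them *Ccl5*, *Pla2g7*, *Adap2*, *Ly6c2* and *H2-T22*.

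Proliferation genes were lower in macrophages after free R848. Of 38 cell cycle genes 38 had a negative log2 fold change, with a median of -0.71, and 23 were lower in every tumor, where 9.26% of all genes in macrophages were. By edgeR 0 of them passed adjustment and 26 had an unadjusted p under 0.05, set against the count over all macrophage genes given with *Lcn2* above. DESeq2, which called 1.14% of all genes, called 7. *Mki67*, the proliferation antigen Ki-67, stood at 234, 231 and 148 CPM after free R848 and 388, 558 and 363 CPM after saline (log2 fold change -1.09, SE 0.27, edgeR adjusted p = 0.196). *Top2a*, a topoisomerase of dividing cells, was 221, 165 and 138 CPM after free R848 and 286, 416 and 248 CPM after saline (log2 fold change -0.86, SE 0.24), and the checkpoint kinase *Bub1* was 22.3, 22.7 and 12.7 CPM against 45.2, 49.3 and 43.3 (log2 fold change -1.22, SE 0.26). The tubulin *Tubb5* was 755, 724 and 649.9 CPM against 934, 1043 and 814 (log2 fold change -0.39, SE 0.15). *Pcna*, the clamp of DNA polymerases, overlapped at 157, 129 and 137 CPM against 122, 202 and 148. Saline replicate 2 held the highest *Mki67*, *Top2a* and *Pcna*, and free R848 replicate 3 the lowest *Mki67* and *Top2a*. When saline replicate 2 was left out, 33 of 38 were lower with a median of -0.49, and 23 had no overlap, where 17.4% of all genes did. *Top2a*, *Bub1* and *Pcna* were chosen after their values were seen.

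In NK cells, T cells and MC38 cells the same list was near 0. Its median was -0.01 in NK cells, -0.00 in T cells and -0.07 in MC38 cells, with 17 of 38, 18 of 37 and 14 of 38 genes higher. In mature dendritic cells the median was -0.34 with 8 of 23 higher and 1 lower without overlap, where 12% of all genes were, and it lay between -0.79 and 0.25 when tumors were left out in turn. Set against macrophages within the same tumors, 35 of 38, 36 of 38 and 37 of 38 genes changed more upward in these classes, by median differences of 0.61, 0.67 and 0.68. *Mki67* differed by 0.87, 0.86 and 0.89, with edgeR adjusted p of 0.490, 0.252 and 0.674.

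**Figure D4:**
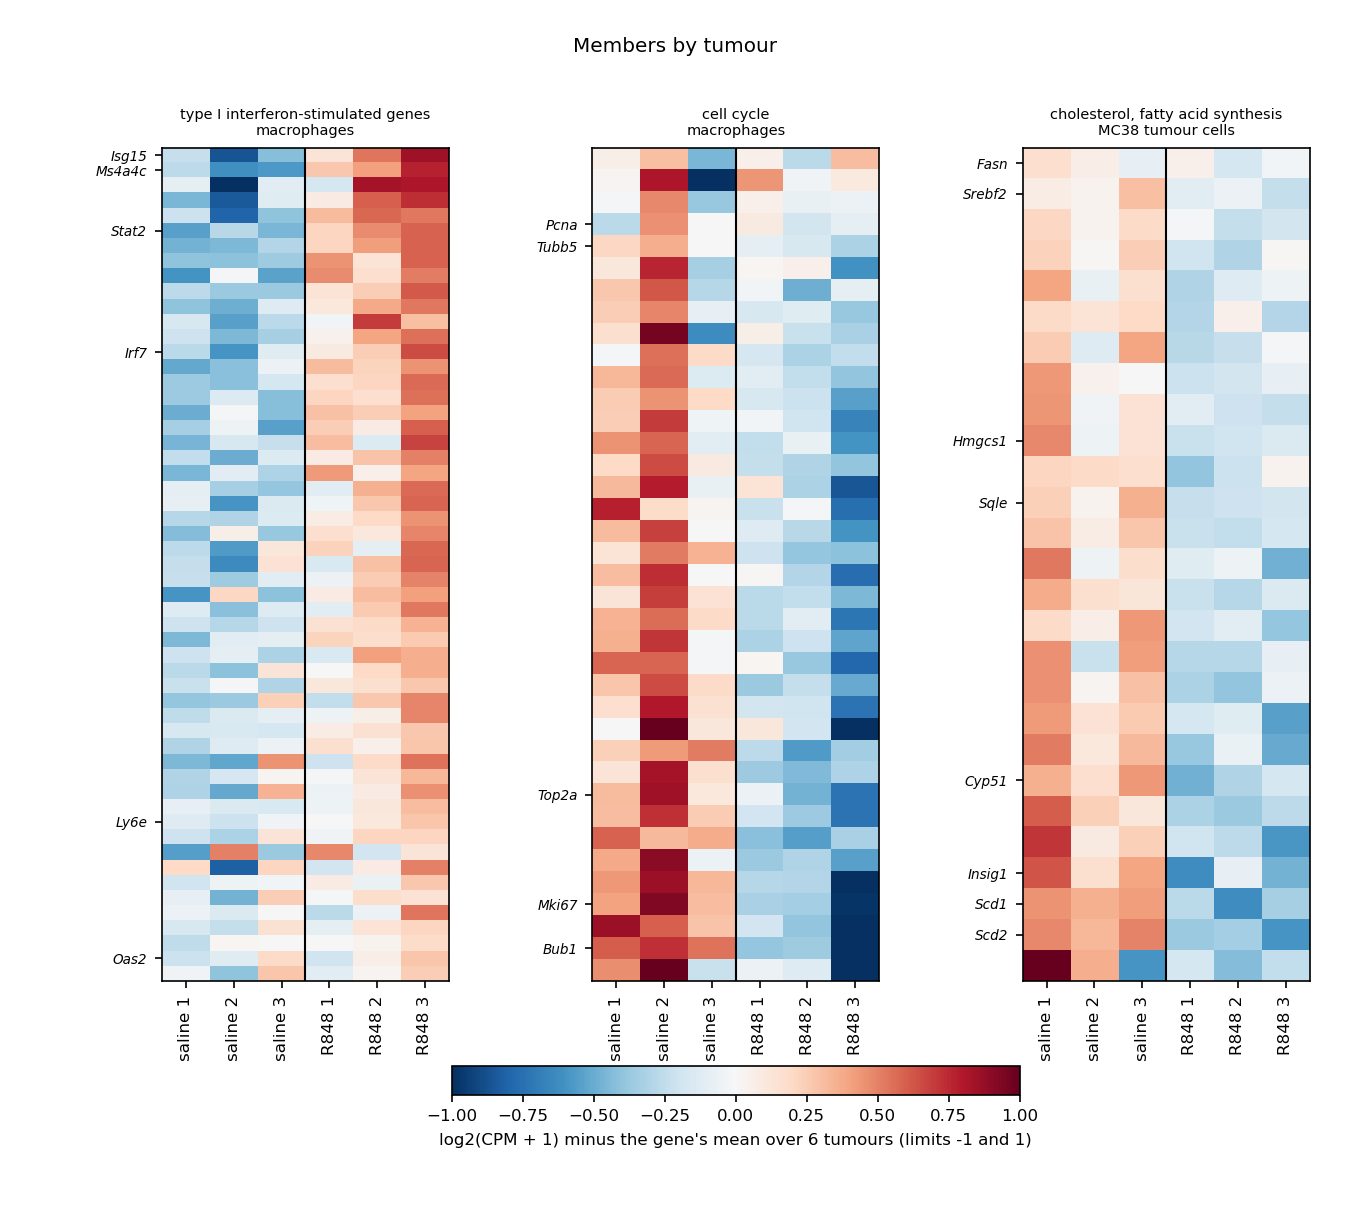
Members of 3 lists by tumor, as log2(CPM + 1) minus the mean of the gene over 6 tumors, with saline to the left of the line and free R848 to the right, genes ordered by log2 fold change and the rows of genes named in the text labeled. Interferon-stimulated genes in macrophages are mostly above their mean after free R848, and cell cycle genes in macrophages and cholesterol and fatty acid genes in MC38 cells mostly below it.

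Other lists in macrophages moved less evenly. Of 24 measured interferon-gamma GTPases and related genes, 20 were higher with a median of 0.40, but 1 was without overlap. Without overlap, 9.3% of all genes in macrophages were higher and 9.26% lower. *Gbp2*, a guanylate-binding protein, was 730.3, 224 and 340.2 CPM after free R848 and 106, 583 and 166 CPM after saline, highest in free R848 replicate 1 and saline replicate 2. The median of the list was -0.00093 without free R848 replicate 1 and 0.99 without saline replicate 2, when 17 were higher without overlap, where 18% of all genes were. *Irf8*, a factor of the same list, was 469, 382 and 383 CPM against 454, 476 and 322. MHC class I genes were higher in 17 of 21, with a median of 0.34 and 8 without overlap, and the median lay between 0.23 and 0.54 as tumors were left out in turn. MHC class II genes were lower in 10 of 11, with a median of -0.51, and 2 were without overlap. That direction rested on saline replicate 2, since *H2-Ab1*, the class II beta chain, was 2249.96, 932 and 2102 CPM after free R848 and 1917, 5511 and 1118 CPM after saline and its log2 fold change turned from -0.69 to 0.22 without that tumor, when 6 of 11 were higher with a median of 0.17. Over all cells *H2-Ab1* was 1066, 947 and 1712 CPM against 2437, 3991 and 1885.

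The other lists of macrophages had medians on both sides of 0. Collagen and matrix genes were higher in 9 of 16, with a median of 0.35 and 1 higher without overlap, where 9.3% of all genes were. Left out in turn, tumors gave 8 to 15 genes higher, with a median from 0.036 (without free R848 replicate 2) to 1.69 (without saline replicate 2, when 12 were higher without overlap, against 18% of all genes). Acute-phase genes, among them *Lcn2*, had 9 of 12 higher, a median of 0.86 and 4 higher without overlap, and the median lay between 0.57 and 1.14 as tumors were left out. *Ly6a*, a stem cell antigen induced by interferon and a member of the monocyte list, was 924, 837 and 1019 CPM against 505, 778 and 496. The lysosomal list had a median of 0.08 (17 of 28 higher), with *Ctsb* at 5591, 5631 and 5961 CPM against 4406, 3832 and 5927 and *Ctss* at 6146, 5754 and 6311 CPM against 4165, 5838 and 4378. The lipid-associated list had a median of -0.16 (7 of 19 higher), with *Apoe* at 6361, 10569 and 9545 CPM against 10312, 9754 and 10912. The arginine and redox list had a median of 0.00 (8 of 16 higher). The NADPH oxidase gene *Cybb* was 955, 941 and 1089 CPM against 1065, 1182 and 999. The coagulation and protease list had a median of 0.09 (10 of 19 higher), with *Mmp14* at 332, 333 and 349.9 CPM against 383, 367 and 608 and *Timp2* at 285, 408 and 216 CPM against 425, 211 and 954 (-1.18 on the log2 scale without saline replicate 2). Immediate-early genes had a median of 0.07 (13 of 24 higher), with *Fos* at 1244, 1459.98 and 1423 CPM against 1322, 1098 and 1250.4 and *Junb* at 909, 1244 and 1096 CPM against 1365, 783 and 1193. Several of these medians turned sign with the tumor left out. Without saline replicate 2 and without saline replicate 3, the lipid-associated list stood at -0.39 and 0.27 (4 and 13 genes higher) and the lysosomal list at -0.093 and 0.25. The coagulation and protease list ranged from -0.44 to 0.22, the arginine and redox list from -0.060 to 0.18 and the immediate-early list from 0.014 to 0.19.

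**Figure D5:**
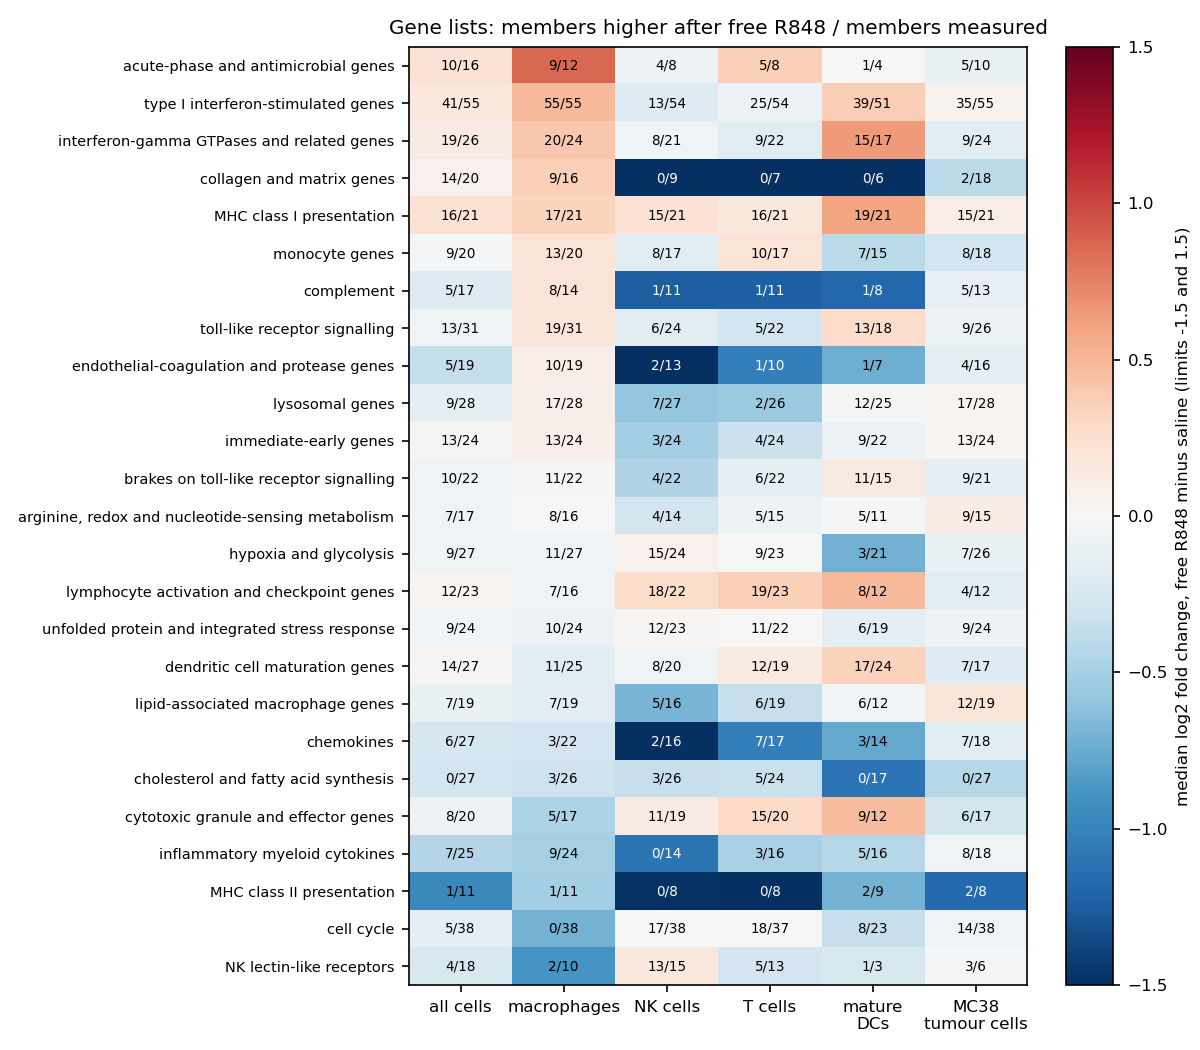
Median log2 fold change (free R848 minus saline, color) of 25 gene lists in all cells and 5 classes, with the number of members higher over the number measured in each field and lists ordered by macrophages. Interferon-stimulated genes stand at 55 of 55 and cell cycle genes at 0 of 38 in macrophages, and cholesterol and fatty acid genes at 0 of 27 in MC38 cells.

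In MC38 cells, genes of cholesterol and fatty acid synthesis were lower after free R848. Of 27 genes 27 had a negative log2 fold change, with a median of -0.43 against -0.01 over all genes tested, and 21 were lower in every tumor, where 7.09% of all genes in MC38 cells were lower and 7.93% higher. By edgeR 0 of 10921 genes (0%) were called in this class, with 625 at an unadjusted p under 0.05. DESeq2 called 8, among them *Scd1*, *Scd2* and *Cyp51*. Without saline replicate 2, 25 of the 27 were lower without overlap, where 15% of all genes were, and the median stayed between -0.52 and -0.38 whichever tumor was left out.

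The genes span the pathway from its regulators to its end products. *Scd1* and *Scd2*, which encode the desaturases that make monounsaturated fatty acids, lie beside each other on chromosome 19, and similar sequence could have split reads between them. *Scd1* was 151, 119 and 145 CPM after free R848 and 250.04, 234 and 244 CPM after saline (log2 fold change -0.81, SE 0.11, edgeR adjusted p = 0.278), and *Scd2* was 589, 604 and 507 CPM after free R848 and 1064, 959 and 1075 CPM after saline (log2 fold change -0.86, SE 0.18, edgeR adjusted p = 0.61). *Cyp51*, a later step that removes a methyl group from lanosterol, was 432, 490.3 and 535 CPM after free R848 and 772, 678 and 815 CPM after saline (log2 fold change -0.64, SE 0.14), and *Sqle*, which oxidizes squalene, was 185, 188 and 191 CPM against 257, 223 and 279 (log2 fold change -0.42, SE 0.14). *Insig1*, which retains the sterol sensor in the endoplasmic reticulum, was 37.2, 54.4 and 41.3 CPM against 90.1, 64.5 and 76.2 (log2 fold change -0.79, SE 0.21). The factor gene *Srebf2* itself was 104, 108 and 95.3 CPM against 119, 116 and 139 (log2 fold change -0.26, SE 0.13). *Fasn*, the fatty acid synthase, overlapped at 259.6, 223 and 247 CPM against 282, 264 and 237 (log2 fold change -0.11, SE 0.11). *Insig1*, *Sqle*, *Srebf2*, *Hmgcs1* and *Fasn* were chosen after their values were seen.

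Of this list 18 genes had a RefSeq window. The sterol regulatory element TCACNCCAC, on either strand, was found in 1 of the 18, *Hmgcs1*, and in 331 of 27025 windows of all genes (1.22%), and the ISRE core in 0 of the 18. *Hmgcs1*, which makes the precursor of mevalonate, was 315, 319 and 331 CPM after free R848 and 512, 354 and 405 CPM after saline (log2 fold change -0.40, SE 0.21). Its window is shown with the match in capitals (chr13:119690189-119690247 on the plus strand, GRCm38.p6, 5′ to 3′ on the strand of the gene).
Hmgcs1: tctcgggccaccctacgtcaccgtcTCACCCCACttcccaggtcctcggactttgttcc

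In the other classes most genes of the list were lower as well. In all cells, a sum that holds the MC38 cells too, 27 of 27 genes were lower with a median of -0.29. In mature dendritic cells 17 of 17 were lower with a median of -1.11, in NK cells 23 of 26 with -0.35, in T cells 19 of 24 with -0.34 and in macrophages 23 of 26 with -0.31. Lower without overlap were 12, 13, 3, 2 and 1 of them, in the same order, where 5.96%, 12%, 6.71%, 6.04% and 9.26% of all genes were, so that in T cells and macrophages the counts were near or under the share over all genes. With tumors left out in turn the medians lay between -0.37 and -0.18 in all cells, -1.35 and -0.90 in mature dendritic cells, -0.37 and -0.11 in NK cells, -0.49 and -0.092 in T cells (each weakest without saline replicate 1) and -0.42 and -0.14 in macrophages (weakest without saline replicate 2). Macrophage markers in the MC38 cells overlapped between treatments, at 821 to 1520 and 902 to 1710 CPM, and median depth per MC38 cell was 16444, 12566 and 12349 UMIs after free R848 and 13007, 13886 and 9886 UMIs after saline. MC38 markers in mature dendritic cells were 319 to 624 and 659 to 1749 CPM, and their part in the value of that class was not tested.

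Other genes named in MC38 cells did not form a listed group. *Acss2*, which makes acetyl-CoA from acetate, was 13.2, 14.0 and 22.7 CPM against 37.0, 34.0 and 37.5 (log2 fold change -1.17, SE 0.23), *Acsl4*, which activates long fatty acids, was 175, 183 and 149 CPM against 236, 244 and 268 (log2 fold change -0.55, SE 0.11), and *Pank3*, a kinase of coenzyme A synthesis, was 136, 136 and 123 CPM against 190.4, 187 and 198 (log2 fold change -0.53, SE 0.10). *Dpysl3*, *Ccng2*, *Klk8* and *Pfdn2* had log2 fold changes of -0.81, -1.06, 0.96 and 0.56, without overlap. *H2-K1*, a classical MHC class I gene, overlapped at 3273, 2517 and 2877 CPM against 2187, 3028 and 2711. Collagen and matrix genes were lower in 16 of 18 with a median of -0.40 and 0 without overlap, and the median lay between -0.56 (without saline replicate 2) and -0.18 (without saline replicate 3), with *Fn1* at 706, 1143 and 804 CPM against 1151, 945 and 1422 and *Sparc* at 1158, 1218 and 1291 CPM against 1288, 1196 and 1266. When saline replicate 2 was left out, 10 of these were lower without overlap, where 15% of all genes were. Genes of the unfolded protein response had a median of -0.08 (9 of 24 higher), with *Hspa5* at 2567, 2789 and 3006 CPM against 2547, 2559 and 2837 and *Hsp90b1* at 1771, 1748 and 1831 CPM against 2048, 1568 and 1913.

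In mature dendritic cells, MHC class I genes were higher and glycolytic genes lower after free R848. The values come from 28, 38 and 35 cells after free R848 and 33 and 21 cells in saline replicates 1 and 3. Of 4534 genes 0 were called by edgeR (0%), 413 had an unadjusted p under 0.05, and DESeq2 called 5. With 3 tumors against 2, 13.6% of all genes were higher and 12% lower without overlap. Of 21 MHC class I genes 19 were higher, with a median of 0.59, and 15 were higher without overlap.

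The chains that are loaded with peptide and the transporter that supplies it were among them. *H2-K1* was 8038, 7920.5 and 7597 CPM after free R848 and 4692 and 4963 CPM after saline (log2 fold change 0.70, SE 0.17, edgeR adjusted p = 0.228). *B2m*, the light chain that all class I molecules share, was 7223, 6359.8 and 6523 CPM after free R848 and 4742 and 4153 CPM after saline (log2 fold change 0.59, SE 0.17), and the peptide transporter *Tap2* was 481, 382 and 451 CPM after free R848 and 228 and 196 CPM after saline (log2 fold change 1.02, SE 0.27). The nonclassical genes *H2-Q7* and *H2-Q6*, near-identical neighbors whose reads could have been split, were 1758, 1157 and 1328 CPM against 595 and 392 (log2 fold change 1.48, SE 0.28) and 2078, 1502 and 1472 CPM against 695 and 823 (log2 fold change 1.16, SE 0.24). *Isg15* was 366, 584 and 589 CPM against 239 and 287 (log2 fold change 0.99, SE 0.31), and *Trim30d* was 295, 260.1 and 236 CPM against 94.5 and 39.2 (log2 fold change 1.80, SE 0.37). *Tap2*, *Isg15*, *Cd40*, *Cd274*, *Pkm* and *Scd2* in this class were chosen after their values were seen.

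Maturation genes were higher in 17 of 24, with a median of 0.35. Without overlap 11 were higher and 2 lower, where 13.6% and 12% of all genes were. The median lay between 0.23 (without saline replicate 3) and 0.75 (without saline replicate 1), with 15 to 17 higher. The costimulatory receptor *Cd40* was 744, 547 and 549.6 CPM after free R848 and 334 and 196 CPM after saline (log2 fold change 1.14, SE 0.29), and the checkpoint ligand *Cd274* was 718, 605 and 622 CPM after free R848 and 406 and 405 CPM after saline (log2 fold change 0.68, SE 0.24). *Ccl22*, a chemokine that attracts regulatory T cells, was one of the 7 that were not higher, at 1572, 1258 and 3631 CPM after free R848 and 3675 and 4232 CPM after saline (log2 fold change -0.88, SE 0.35), with 1 tumor close to saline. *Cxcl1*, a neutrophil attractant, was also lower, at 38.5, 10.6 and 32.7 CPM against 128 and 144 (log2 fold change -2.32, SE 0.51).

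Of 21 hypoxia and glycolysis genes 18 were lower, with a median of -0.73, and 12 were lower without overlap, where 12% of all genes were. The glucose transporter *Slc2a1* was 32.1, 10.6 and 26.2 CPM after free R848 and 117 and 131 CPM after saline (log2 fold change -2.43, SE 0.48), the aldolase *Aldoa* was 917, 780.4 and 1086 CPM after free R848 and 1373 and 1541 CPM after saline (log2 fold change -0.65, SE 0.22), and the pyruvate kinase *Pkm* was 840.3, 483 and 707 CPM against 1245 and 1279.97 (log2 fold change -0.90, SE 0.26). *Ndrg1*, which hypoxia induces, overlapped at 1463, 1051 and 1243 CPM against 650.5 and 1489 (log2 fold change 0.27, SE 0.30). *Sqle* was 44.9, 79.6 and 91.6 CPM against 250.2 and 248 (log2 fold change -1.78, SE 0.36) and *Scd2* 64.1, 196 and 65.4 CPM against 339 and 300.4 (log2 fold change -1.52, SE 0.42). *Mt1*, *Oxct1*, *Plod3* and *Gga3* had log2 fold changes of -1.64, -1.61, -2.69 and 2.70. Markers of other cells moved with these genes, as the 8 fibroblast markers summed to 5.67 to 92.6 CPM after free R848 and 144 to 416 CPM after saline with 0 of 8 higher. Their part in these values was not tested.

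In NK cells, some genes of the killing machinery were higher after free R848. Of 8991 genes 0 were called by edgeR (0%), 480 had an unadjusted p under 0.05, and DESeq2 called 0. Without overlap, 6.22% of all genes were higher and 6.71% lower. Of 19 cytotoxic granule and effector genes 11 were higher, with a median of 0.12, and 6 were higher and 1 lower without overlap. The median lay between 0.022 (without saline replicate 1) and 0.30 (without saline replicate 3), with 10 to 15 higher, and for the cytotoxic granule and effector genes of NK cells that passed no other gate it was 0.019. The macrophage markers were lower in these cells, with sums that overlapped between treatments, and the NK markers outside the gate were higher, as given above. Their part in the granule genes was not tested. Granzyme B, *Gzmb*, stood at 5913, 6219 and 6276 CPM after free R848 and 4406, 4847 and 4417 CPM after saline (log2 fold change 0.43, SE 0.17, edgeR adjusted p = 0.881), and granzyme A, *Gzma*, at 3689.6, 3076 and 3859.8 CPM after free R848 and 1217, 2647 and 2791 CPM after saline (log2 fold change 0.68, SE 0.28). The *Gzma* value lay between 0.38 and 0.86 with tumors left out in turn. The pore-forming *Prf1* was 2229, 1913 and 1824 CPM against 1656, 1333 and 1645 (log2 fold change 0.37, SE 0.19) and the granule membrane gene *Nkg7* 1050.3, 998 and 1014 CPM against 668, 788 and 786 (log2 fold change 0.45, SE 0.13). *Gzmc*, the most abundant of them, overlapped at 12293, 12455 and 13031 CPM against 12589, 8576 and 14211. *Xcl1*, a chemokine that attracts conventional dendritic cells, was 275, 497 and 411 CPM against 845, 646 and 375 (log2 fold change -0.67, SE 0.29) and overlapped. *Gzma*, *Prf1*, *Nkg7*, *Xcl1* and *Bst2* in this class were chosen after their values were seen.

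Receptor genes of NK cells were also higher in most cases. Of 15 lectin-like receptor genes 13 were higher, with a median of 0.16 and 3 higher without overlap, where 6.22% of all genes were. With tumors left out in turn 9 to 13 were higher and the median lay between 0.099 and 0.25. Among the 3 was *Klra8*, the activating receptor Ly49H, at 246, 216 and 267 CPM after free R848 and 155, 141 and 178 CPM after saline (log2 fold change 0.62, SE 0.15). *Klra8* has many similar neighbors in its gene cluster, so its reads could have been split. *Klrb1b* was 605, 432 and 576 CPM against 429, 479 and 811 and *Klrd1* 411, 369 and 319 CPM against 372, 359 and 444, and both overlapped. *Il12rb1*, a chain of the receptor for interleukin 12, was 122, 109 and 115 CPM after free R848 and 70.8, 82.8 and 66.3 CPM after saline (log2 fold change 0.66, SE 0.15, edgeR adjusted p = 0.881). *Cmas*, *AA467197* and *Rnf5* had log2 fold changes of 0.60, 0.82 and 0.92, and *Zfp36l1*, *Irak2* and *Mapk8ip3* of -0.93, -0.82 and -0.90. The macrophage genes *Lyz2* and *Tlr2* were lower in NK cells, at 130.4, 206 and 98.7 CPM against 626, 725 and 502 and at 22.8, 33.7 and 8.23 CPM against 51.6, 104 and 67.6, beside the lower macrophage markers given above.

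In T cells, activation and checkpoint genes were higher in 19 of 23, with a median of 0.36 and 3 without overlap. Among T cells that passed no other gate, this list of lymphocyte activation and checkpoint genes had 10 of 23 higher and a median of -0.05. Of 7499 genes 0 were called by edgeR (0%), 507 had an unadjusted p under 0.05, and DESeq2 called 12. Without overlap, 5.8% of all genes were higher and 6.04% lower. *Ctla4*, an inhibitory receptor, was 192, 205 and 179 CPM after free R848 and 172, 152 and 79.9 CPM after saline (log2 fold change 0.48, SE 0.25), and *Cd27*, a costimulatory receptor, was 174, 89.1 and 105 CPM after free R848 and 53.5, 87.6 and 51.9 CPM after saline (log2 fold change 0.93, SE 0.31). Among T cells that passed no other gate the *Ctla4* difference was -0.05. *Tnfrsf9* and *Il2rb*, the most abundant of the list, overlapped at 1146, 765 and 1153 CPM against 886, 733 and 1158 and at 731, 544 and 727 CPM against 573, 479 and 831. *Gzmb* was 4026, 2411 and 3035 CPM against 2010.05, 3059 and 2516 and overlapped. *Ctla4*, *Cd27*, *Gzmb* and *Mrc1* in this class were chosen after their values were seen.

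The genes named by the smallest p in T cells were all lower after free R848. *Cd74*, the chaperone of MHC class II, was 75.3, 176 and 64.7 CPM after free R848 and 647, 654 and 256 CPM after saline (log2 fold change -2.32, SE 0.42, edgeR adjusted p = 0.182), and the class II gene *H2-DMa* was 27.7, 44.5 and 40.1 CPM against 116, 173 and 67.9. *Itgax* was 27.7, 12.4 and 37.0 CPM against 78.1, 179 and 79.9, *Lpl* 12.3, 4.95 and 6.16 CPM against 64.7, 55.5 and 55.9, and *Ccl2* 58.4, 64.3 and 61.6 CPM against 201, 147 and 199.7. *Tlr2*, *Timp2*, *Plcg2*, *Dab2* and *Sdc4* had log2 fold changes of -1.62, -2.06, -1.16, -1.99 and -1.54. The mannose receptor *Mrc1*, a macrophage marker, was 7.68, 22.3 and 12.3 CPM against 167, 38.5 and 112. Macrophage markers summed to 1554 to 2992 CPM in T cells after free R848 and 2595 to 7942 CPM after saline, with 1 of 11 higher, and among T cells that passed no other gate to 470 to 1422 and 721 to 1342 CPM. MHC class II genes were lower in 8 of 8 in T cells (median -2.24) and 8 of 8 in NK cells (median -1.49, and -0.58 without saline replicate 2). The part of macrophage RNA in these values was not tested.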

How the data were processed

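Seq-Well libraries were made 24 hours after dosing from 8 MC38 tumors (3 free R848, 3 saline, 2 medium R848-BPD). For each tumor the authors deposited 1 table of UMI counts, with genes against barcodes and no normalization. The submitters' processing notes name bcl2fastq and mm10. The aligner and annotation are not given in the sources used here. Genes are listed by symbol, and positions come from the GENCODE M21 annotation of GRCm38, with promoter windows from RefSeq. Cells with over 400 and under 10000 genes, under 50000 UMIs and at most 15% mitochondrial UMIs were kept (8051 barcodes, 7303 kept in the 6 tumors), and doublets marked by Scrublet were left in.

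Counts were summed per tumor over all cells and per gate, for tumors with at least 10 cells. Sums were tested with edgeR 4.0.16 (R 4.3.3; filterByExpr, TMM, quasi-likelihood F test, Benjamini-Hochberg over all genes, called under 0.05) in 1 fit of all 8 tumors. The SE was obtained by dividing the log2 fold change by the root of the F statistic. Nothing in the labels pairs tumors, and p-values measure the spread between these tumors. Shares were compared by two-sided exact permutation tests. Wilson intervals (95%) cover counting error only. The test was checked on simulated counts.

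The members, gates and lists were chosen with earlier results of these data known. Genes were named where they were called and averaged 4 or more in log2 CPM, and, where fewer than 10 met this, the 10 with the smallest unadjusted p and no overlap. Also named were called members of a list, or else its 2 most abundant members; and *Tlr7* with its partners. Exceptions are stated. A few named genes and 1 other gate are not reported here. The results were recomputed with DESeq2 1.42.0, with size factors by RLE, without the filter on low counts, with the 6 tumors alone, with a replicate block, without doublets, with exclusive gates, after thinning, with other denominators and with each tumor left out. Leaving out shared barcodes was added after the data were seen. Cells are no replicates, so the test over single cells that the study's methods describe was not used. Python 3.11.15 with scanpy 1.11.5 and scipy 1.17.1 was also used.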

Additional observations from a re-analysis of the deposited data

Results flagged for a closer look

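For 8 genes the tumors of the 2 treatments did not overlap in a pair of classes and lay in opposite directions, and each value that follows is the difference between the log2 fold changes of the classes. Such pairs were looked for among all named genes and all pairs of classes. Between macrophages and T cells, *C3ar1* differed by 1.39 (0.64 and -0.75), *Myd88* by 1.22 (0.56 and -0.66) and *Stat2* by 1.13 (0.85 and -0.27). The class-by-treatment term did not call them, with edgeR adjusted p of 0.364, 0.175 and 0.202. *Sh3bp5* differed by 1.99 between macrophages and NK cells (0.86 and -1.13), with an edgeR adjusted p of 0.490 for the same term. Differences in the other pairs of classes were not tested. Between mature dendritic cells and T cells, *Myd88* differed by 1.34 (0.69 and -0.66) and *Stat2* by 0.664 (0.39 and -0.27). *Cd40* differed by 3.95 between mature dendritic cells and NK cells (1.14 and -2.81), *Gzmb* by 1.52 between NK cells and MC38 cells (0.43 and -1.09), *Pkm* by 1.19 between NK cells and mature dendritic cells (0.29 and -0.90), and *Traf6* by 0.995 between T cells and NK cells (0.61 and -0.38). *C3ar1*, *Cd40* in NK cells and *Gzmb* in MC38 cells are genes of other cell types than the class in which they were lower. Most macrophage markers were lower in NK cells and T cells after free R848, with sums that overlapped between treatments, at the values given above. Their part in these differences was not tested.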

How the results depend on the processing

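Leaving out each tumor in turn moved the counts of called genes to 0 to 2 over all cells (0 without free R848 replicate 1, saline replicate 1, 2 or 3), 0 to 49 in macrophages (49 without saline replicate 2, 0 without free R848 replicate 1 or 2 or saline replicate 1), 0 to 2 in NK cells (2 without either medium R848-BPD tumor), 0 to 6 in T cells (6 without saline replicate 3 or either medium R848-BPD tumor), 0 to 4 in mature dendritic cells (3 without medium R848-BPD replicate 1, also 3 without free R848 replicate 2, and 4 without medium R848-BPD replicate 2) and 0 to 1 in MC38 cells (1 without either medium R848-BPD tumor). Where a mature dendritic fit then held 1 saline tumor, that tumor was assumed to vary like the others. Class-by-treatment counts went to 0 to 4 against T cells (4 without free R848 replicate 2) and 0 to 0 against NK cells and MC38 cells. Differences in shares ranged from -8.30 to 9.91 points for macrophages, turning sign without free R848 replicate 3 (0.55) or saline replicate 2 (9.91), from -3.00 to -0.71 for NK cells, 1.11 to 2.84 for T cells, 1.16 to 2.11 for mature dendritic cells and 0.81 to 7.20 for MC38 cells.

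In the order all cells, macrophages, NK cells, T cells, mature dendritic cells and MC38 cells, no filter on low counts called 10, 600, 225, 180, 52 and 105 genes and 418, 237 and 58 for the class-by-treatment term (NK, T, MC38). DESeq2 called 8, 111, 0, 12, 5 and 8, and a fit of only the 6 tumors 1, 2, 3, 6, 1 and 1, with the call of *Lcn2* over all cells lost (edgeR adjusted p = 0.0829). Exclusive gates called 0 in macrophages, 1 in T cells and 1 in mature dendritic cells, and 1 (NK) and 2 (T) for the class-by-treatment term. RLE size factors, leaving out doublets and leaving out shared barcodes kept each of these counts within 1.5 times. The causes were not tested.

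Replicate numbers did not pair the tumors. Deviations of same-numbered tumors correlated at -0.21, -0.17 and 0.01 over all cells and -0.27, -0.25 and 0.18 in macrophages. The highest correlation was between free R848 replicate 1 and saline replicate 2, at 0.33 over all cells and 0.48 in macrophages. With a replicate block the counts were 1, 2, 6, 1, 0 and 0, in the order above, and the call of *Ccl5* over all cells was lost (edgeR adjusted p = 0.206).

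Of 147 results for named genes, 20 turned sign in at least 1 of these settings. Left out in turn, tumors gave log2 fold changes in macrophages of -0.18 to 0.085 for *Irf8*, -0.029 to 1.68 for *Gbp2*, -0.057 to 0.012 for *Cxcl16*, -0.55 to 0.050 for *Cd14*, -0.18 to 0.12 for *Slc15a3*, -0.23 to 0.085 for *Nfkbia*, -1.08 to 0.22 for *H2-Ab1*, -0.24 to 0.14 for *Junb*, -0.21 to 0.088 for *Traf6*, -0.015 to 0.23 for *Oas2* and -0.31 to 0.073 for *Pcna*. In NK cells they gave -0.093 to 0.24 for *Gzmc*, -0.27 to 0.23 for *Klrb1b* and -0.18 to 0.00084 for *Klrd1*, in T cells -0.067 to 0.34 for *Il2rb*, in mature dendritic cells -0.20 to 0.95 for *Ndrg1*, and in MC38 cells -0.15 to 0.041 for *Hsp90b1* and -0.073 to 0.0051 for *Sparc*. Exclusive gates gave -0.0094 for *Slc15a3* in macrophages, and -0.040 for *Tnfrsf9*, -0.053 for *Il2rb* and -0.049 for *Ctla4* in T cells.

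With 3 tumors a group, a permutation test cannot pass 0.05, and classes with few cells, such as mature dendritic cells with 21 to 38 cells in each of the 5 tumors compared, leave genes of low counts out of the test.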

Other observations

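The 2042 cells that passed no gate carried markers of several myeloid types, in amounts that differed widely between single tumors. Their monocyte markers summed to 3913 to 7126 CPM after free R848 and 3817 to 5603 CPM after saline, with 6 of 8 markers higher. Osteoclast markers such as *Ctsk* and *Acp5* summed to 286 to 18593 CPM and to 186 to 19417 CPM. Fibroblast markers ranged from 80.8 to 2222 CPM and from 342 to 1000 CPM.

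MHC class II genes over all cells were lower in 10 of 11 after free R848, with a median log2 fold change of -0.96 and 5 lower without overlap, where 5.96% of all genes were. Without saline replicate 2, 8 were lower without overlap, where 15.8% of all genes were. Among NK cells, 18 of 22 lymphocyte activation genes were higher with a median of 0.27. When tumors were left out in turn 11 to 21 were higher and the median lay between 0.095 (without free R848 replicate 1) and 0.60 (without saline replicate 2). MHC class I genes were higher in 15 of 21 in NK cells, with 8 without overlap, where 6.22% of all genes were. Markers of plasmacytoid dendritic cells, among them *Bst2*, summed to 899 to 1222 CPM over all cells after free R848 and 638 to 766 CPM after saline, but 3 of the 8 were higher.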
